A study of Mus musculus with 8 samples.

Results

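H3K27ac, a histone mark of promoters and enhancers in use, was examined at 9 genes in microglial nuclei of wild-type (WT) and progranulin-deficient (GrnKO) mice. They comprised Trem2, Tyrobp, other genes of the TREM cluster and signalling partners. The genes were the receptor genes Trem2, Treml1, Treml2, Treml4 and Trem1, the adaptor genes Tyrobp and Hcst, the kinase gene Syk and the phospholipase gene Plcg2. All regions that the deposited table assigned to these gene names were taken, 89 of 129304 regions and 9 of 18707 gene names. Every region was 800 bp wide, so levels are compared between genes per region. The 89 regions formed 66 blocks of regions that do not overlap each other, and regions inside a block share tags and are not independent.

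TREM2 is a lipid-sensing receptor on the surface of microglia and other macrophages. It has no signalling tail of its own and passes its signal to the adaptor DAP12, encoded by Tyrobp, whose phosphorylated tyrosine motif recruits the kinase SYK. SYK in turn activates phospholipase C gamma 2, while DAP10, the adaptor encoded by Hcst, recruits phosphoinositide 3-kinase. Loss-of-function variants of TREM2 or TYROBP cause Nasu-Hakola disease, and TREM2 is described as needed for the later stage of the disease-associated state of microglia, while the early stage is described as independent of it.

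The nuclei came from brains of C57BL/6 mice aged 2 years that were WT or GrnKO, the latter lacking progranulin, a secreted and lysosomal protein; the labels name no other allele or treatment. Nuclei were sorted for the myeloid factor PU.1 and against the lineage markers OLIG2 and NEUN, and each replicate pooled the nuclei of 2 mice. Each genotype had 2 H3K27ac libraries (replicates 1 and 2) and 2 matched input libraries of chromatin taken before immunoprecipitation. Differences are GrnKO minus WT on a log2 scale after adding 1 to each scaled value, so those of weak regions are understated, and a difference passed the test when its Benjamini-Hochberg adjusted p in limma was under 0.05 over all regions or genes. In bulk chromatin, fewer cells carrying a mark and less of it per cell cannot be told apart.

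The H3K27ac libraries held 15491643 to 20030832 tags and the inputs 4078179 to 14415969. WT replicate 1 stood apart: 49.4% of its tags fell in the listed regions, against 63.3% in WT replicate 2 and 64.8% and 65.7% in the GrnKO libraries and, for summed signal, it was the lowest library at 6 of the 8 tested genes. After TMM scaling the median log2 change was -0.0020 over all tested regions and -0.05 over all genes. On the deposited scaling these medians were 0.22 and 0.18, and 95.2% of the regions that differed were higher, against 70.0% after TMM; among genes the share was 90.8% against 59.4%. Grn had 10 regions, and 4 of them had 0 tags in both GrnKO libraries, where the WT libraries had 138 to 357 scaled tags. A count of 3 tags, the limit that a count of 0 allows, was worth 1.38 to 2.35 tags on this TMM scale. In the inputs the median of the member regions' mean was 1.61 tags scaled to library size and the highest was 24. Single inputs were higher at some regions. At the Trem2 start site WT input 1 had 79.7 tags, where WT replicate 1 had 320 on the same scale and the other inputs had 2.14, 0 and 0. Microglial markers were strongly acetylated (338 tags per region at Cx3cr1 and 234 at P2ry12 in WT) and were lower in GrnKO at 6 of 10 genes and higher at 0; their summed signal was 54108 and 57294 in the WT libraries and 44763 and 45344 in the GrnKO libraries. Border macrophage markers were higher at 2 of 8 genes, Ms4a7 by 1.60 and Siglec1 by 0.55, and lower at 0. F13a1 (0.60), Mrc1 (0.10), Lyve1 (-0.80), Cbr2 (-0.24), Cd163 (-0.09) and Pf4 (-0.04) did not pass, and the list median was 0.03. Over all genes 8.60% were higher and 5.88% lower. The border macrophage list summed to 2022 to 2292 tags in WT and 2804 to 3105 in GrnKO, of which Siglec1 had means of 920 and 1336. The part of these shifts in the results below was not tested.

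With all 4 libraries, more regions of these genes were higher than lower in GrnKO nuclei, by an amount that hung on WT replicate 1. Of the 77 regions that passed the filter on low values, 9 were higher (11.7%) and 0 were lower, against 6.80% and 2.92% of all tested regions; the other 12 regions were too weak to test. At an unadjusted p under 0.05, limma gave 19 higher (24.7%) and 3 lower (3.90%), against 13.9% and 9.98% of all regions. The GrnKO libraries lay entirely above the WT libraries at 31 member regions (40.3%, against 27% of all regions) and entirely below at 12 (15.6%, against 25.6%). The median change over the 77 regions was 0.26. Without WT replicate 1 it was 0.08, with 11 regions higher (14.3%) and 2 lower (2.60%), against 10.6% and 5.43% of all regions in the same fit, so the share higher was then closer to that of all regions. Without WT replicate 2 it was 0.44, with 18 higher (23.4%) and 1 lower (1.30%), against 11.9% and 5.86%. Of 17 tested regions within 1000 bp of a start site 1 was higher, and of 60 farther away 8 were higher; over all regions these shares were 3.57% and 7.99%. The higher member regions thus lay beyond 1000 bp about as often (88.9%) as all higher regions did (85.9%), and 1 of the 8, at Treml2, overlaps the higher region within 1000 bp. Summed per gene, 2 of 8 tested genes were higher, Treml2 and Hcst, and 0 were lower, against 8.60% and 5.88% of all genes. Both GrnKO libraries were above both WT libraries at 6 of the 8 and below at 0, against 25.4% and 29.4% of all genes. The median over the 8 genes was 0.26 with all libraries, 0.12 without WT replicate 1, when Treml2 alone passed, and 0.45 without WT replicate 2, when 4 genes passed (Trem2, Treml2, Hcst and Syk); in these fits 12.1% and 12.9% of all genes were higher, so 1 of 8 (12.5%) is about the share of all genes. Of the 9 higher regions, 8 passed without WT replicate 1 and 9 without WT replicate 2. Without GrnKO replicate 1, or without GrnKO replicate 2, none of the 9 regions and neither gene passed, in fits that called only 1.41% and 1.81% of all regions and 3.62% and 4.34% of all genes higher. The median change over the 77 regions was then 0.25 and 0.32, with Treml2 at 0.80 and 0.81 and Hcst at 0.44 and 0.33. Replicate spread came from the WT pair alone in these fits, so the lost calls cannot show dependence on a GrnKO library. In the fits without a WT library it came from the GrnKO pair alone.

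**Figure D1:**
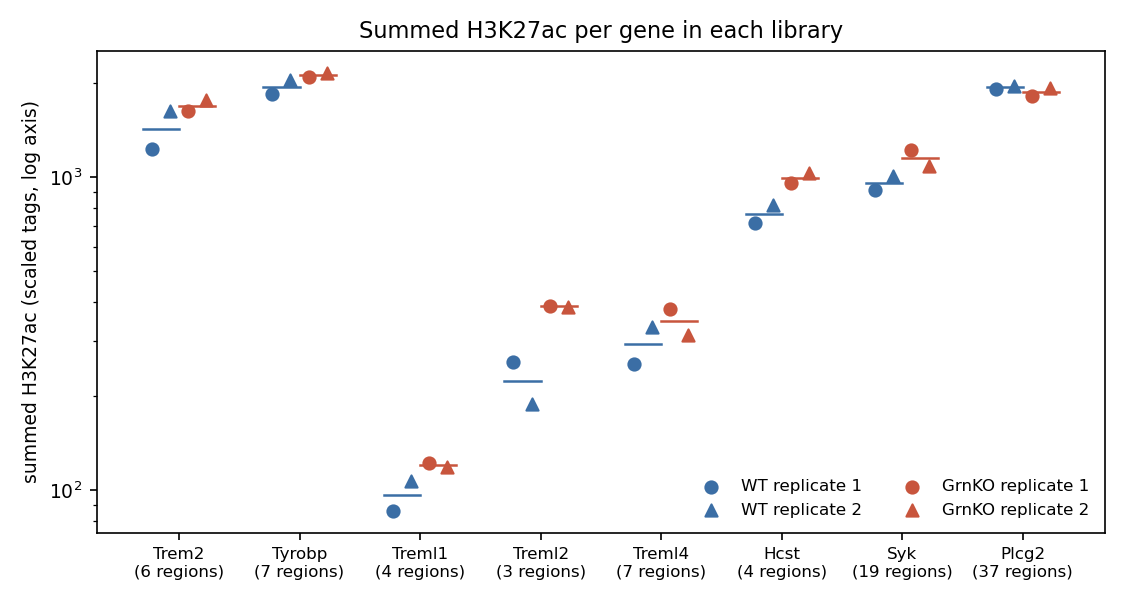
Summed H3K27ac of the 8 tested genes in each library, as TMM-scaled tags on a log axis; horizontal lines are the means of each genotype. Both GrnKO libraries lie above both WT libraries for Trem2, Tyrobp, Treml1, Treml2, Hcst and Syk, while the genotypes overlap for Treml4 and Plcg2, and WT replicate 1 is the lowest library for each gene except Treml2 and Plcg2.

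Trem2 carried some of the strongest H3K27ac of any gene, and its signal was not shown to differ between the genotypes. The gene lies at chr17:48346401-48352276 (mm10). Its summed signal over 6 regions was 1234 scaled tags in WT replicate 1 and 1622 in WT replicate 2, and in the GrnKO replicates it was 1625 and 1762. WT replicate 1 was the low library, and WT replicate 2 nearly equalled the lower GrnKO library. The log2 difference was 0.26 (SE 0.12, 95% interval -0.0054 to 0.52, limma adjusted p = 0.195). It was 0.06 without WT replicate 1 (limma adjusted p = 0.742) and 0.46 without WT replicate 2 (limma adjusted p = 0.00016), so the size of the difference hung on which WT library was kept. Per region Trem2 had 238 tags in WT, at the 99.0th percentile of genes.

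The strongest signal sat at the Trem2 start site and in the adjoining gene body. The region over the start site, at chr17:48346033-48346833 (mm10), had 387 and 528 tags in WT and 526 and 527 in GrnKO. WT replicate 1 stood alone below 3 nearly equal libraries. The difference was 0.22 (limma adjusted p = 0.364) and became -0.0033 without WT replicate 1 and 0.44 without WT replicate 2 (limma adjusted p = 0.0086). The neighbouring intronic region, 1111 bp into the gene, had 456 and 515 tags in WT and 524 and 514 in GrnKO, and these overlapped. The region farthest into the gene, over exon 2 of Trem2 at chr17:48348095-48348895, had 118 and 177 tags in WT and 186 and 266 in GrnKO. Here both GrnKO libraries were higher, but the difference of 0.61 missed the threshold (limma adjusted p = 0.0785); it was 0.33 without WT replicate 1 and passed at 0.90 without WT replicate 2 (limma adjusted p = 0.0008). A weak intergenic region 4357 bp before the start had 17.2 and 42.4 tags in WT and 52.3 and 42.9 in GrnKO, with the GrnKO libraries on top by a narrow margin and a change of 0.78 (limma adjusted p = 0.238) that was 0.16 without WT replicate 1 and 1.41 without WT replicate 2 (limma adjusted p = 0.0059).

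The promoter sequence of Trem2 is shown because one of the tallest Trem2 regions covers it, beside those of Hcst, which was higher in GrnKO, and Plcg2, which was not. Each is the 250 bases before the RefSeq start site (GRCm38.p6, which is mm10), 5′ to 3′ along the gene's own strand. The stretches are chr17:48346151-48346400 (plus strand) for Trem2, chr7:30419855-30420104 (minus strand) for Hcst and chr8:117498025-117498274 (plus strand) for Plcg2. Capitals mark exact matches, on either strand, to the PU.1 core GAGGAA (read as TTCCTC on the other strand), the E-box CACGTG and the AP-1 site TGANTCA.
Trem2: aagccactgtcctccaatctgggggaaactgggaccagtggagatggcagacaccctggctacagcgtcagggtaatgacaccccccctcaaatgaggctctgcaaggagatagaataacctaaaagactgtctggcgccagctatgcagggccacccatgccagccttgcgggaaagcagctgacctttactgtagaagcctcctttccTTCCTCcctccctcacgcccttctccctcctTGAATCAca
Hcst: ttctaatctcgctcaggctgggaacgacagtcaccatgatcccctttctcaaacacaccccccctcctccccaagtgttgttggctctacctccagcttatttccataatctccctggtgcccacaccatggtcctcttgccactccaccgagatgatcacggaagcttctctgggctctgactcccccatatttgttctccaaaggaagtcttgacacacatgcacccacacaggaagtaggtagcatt
Plcg2: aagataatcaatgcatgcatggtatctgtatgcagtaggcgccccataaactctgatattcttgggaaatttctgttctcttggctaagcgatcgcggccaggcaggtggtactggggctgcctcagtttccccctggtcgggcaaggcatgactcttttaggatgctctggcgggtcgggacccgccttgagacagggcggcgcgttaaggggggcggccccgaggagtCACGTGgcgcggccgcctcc

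The Trem2 sequence held 1 PU.1 core, 40 bases before the start, and 1 AP-1 match, 9 bases before it. PU.1 is the lineage factor used to sort the nuclei, and AP-1 factors are induced in activated macrophages. Of 32851 mouse promoters of the same length, 23.3% held the PU.1 core, 6.75% the AP-1 site and 6.02% the E-box, which MITF, TFE3 and TFEB, regulators of lysosomal genes, can bind. Plcg2 held 1 E-box, 20 bases before its start, and Hcst held none of the 3 motifs in this window. Promoter sequences were found for 7 of the 9 genes, with 2 for Syk. Among those not printed, Treml1 held 1 E-box, Treml4 held 2 PU.1 cores, Trem1 held 1 and the downstream Syk promoter held 1. The 8-base site TCACGTGA, found in 0.785% of promoters, was in none of these windows. CpG dinucleotides separated the promoters: 27 in the upstream Syk promoter and 17 in Plcg2, against 4 in Trem2 and in Hcst and a median of 6 over all promoters.

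Treml2, whose product TLT-2 is a receptor of macrophages, neutrophils and B cells, had the largest change in summed signal of the 8 tested genes. Its 3 regions summed to 257 and 189 tags in WT and 389 and 385 in GrnKO. The GrnKO libraries nearly coincided and both lay well above WT. The mean was 1.73-fold higher in GrnKO (log2 difference 0.81, SE 0.18, 95% interval 0.43 to 1.19, limma adjusted p = 0.0076). The difference was 1.03 without WT replicate 1 and 0.59 without WT replicate 2, and passed in both; it was 0.80 without GrnKO replicate 1 (limma adjusted p = 0.0764) and 0.81 without GrnKO replicate 2 (limma adjusted p = 0.0601).

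Both strong Treml2 regions, which overlap each other, rose. The region over the first exon, annotated as 5′ UTR at chr17:48300018-48300818, had 142 and 91.1 tags in WT and 210 and 196 in GrnKO. Its change was 0.83 (SE 0.21, limma adjusted p = 0.0169), and 0.52 without WT replicate 2 (limma adjusted p = 0.0410). The next region, in intron 1 of 4 at chr17:48300650-48301450, had 109 and 93.0 tags in WT and 167 and 176 in GrnKO. Its change was 0.77 (SE 0.20, limma adjusted p = 0.0185), and at both regions every GrnKO library was above every WT library. The remaining region, 13067 bp before the start, held 4.97 to 11.9 tags. Markers of other cells that can express Treml2 did not all move one way. The B-cell list summed to 310 to 346 tags in WT and 584 to 701 in GrnKO; of its 2 tested genes Ms4a1 was higher by 1.35 and Cd79b did not pass (-0.16), while Pax5 had at most 0.56 tags. The neutrophil list summed to 1811 to 2338 tags in WT and 1925 to 1949 in GrnKO, most of it at Csf3r (-0.09, not passing); 1 of its 5 tested genes was higher, S100a8 by 3.04 (1.72 without WT replicate 1), and S100a9 had at most 3.39 tags. The part of these markers in the Treml2 result was not tested.

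Treml4 encodes a receptor found on some monocytes, macrophages and dendritic cells, and its regions did not move together. Its 7 regions summed to 253 and 333 tags in WT and 380 and 314 in GrnKO, so the genotypes overlapped (difference 0.25, limma adjusted p = 0.415). The difference was 0.05 without WT replicate 1, 0.45 without WT replicate 2 (limma adjusted p = 0.0501) and 0.11 without GrnKO replicate 1, so its size was not settled by these libraries. A pair of overlapping regions at the end of the gene rose. The region over its 3′ UTR, at chr17:48274699-48275499, had 16.4 and 21 tags in WT and 56.3 and 37.1 in GrnKO, a change of 1.26 (SE 0.38, limma adjusted p = 0.0443). The region at its transcription end, at chr17:48275252-48276052, had 62.2 and 65.7 tags in WT and 123 and 97.4 in GrnKO, a change of 0.77 (SE 0.24, limma adjusted p = 0.0488). At both, the GrnKO libraries were clear of the WT libraries, yet both calls were lost with edgeR (adjusted p = 0.0503 and 0.0578), with DESeq2 (0.0537 and 0.0595) and without the filter on low values (limma, 0.0777 and 0.0715). With RLE factors in place of TMM, the call at the transcription end was lost as well (limma adjusted p = 0.0505). The strongest Treml4 region, 14303 bp past the start, had 137 and 173 tags in WT and 154 and 149 in GrnKO, which overlapped. The regions 563 and 76 bp before the start held only 6.25 to 24.9 tags. A region 2264 bp before the start had 25 and 33.3 tags in WT and 14.7 and 8.77 in GrnKO; it was lower in both GrnKO libraries, by 1.27 on the log2 scale, without passing (limma adjusted p = 0.103), though it passed without WT replicate 1 (-1.47, limma adjusted p = 0.0401).

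Treml1, best known as a receptor of platelet granules, had weak signal: 86.0 and 107 tags in WT and 122 and 119 in GrnKO over 4 regions. The GrnKO libraries were on top, but the difference of 0.33 did not pass (limma adjusted p = 0.414), and it was 0.17 without WT replicate 1 and 0.48 without WT replicate 2. The largest change was in 1 intergenic region 3875 bp before the start, between Trem2 and Treml1, with 42.2 and 40.6 tags in WT and 69.0 and 78.0 in GrnKO. That region changed by 0.81, short of the threshold (limma adjusted p = 0.0745), and by 0.84 without WT replicate 1. The other Treml1 regions changed by -0.51, -0.20 and 0.16 without passing. The platelet list summed to 209 to 214 tags in WT and 164 to 171 in GrnKO, with a median change of 0.015. Of its 4 tested genes Gp9 was lower by 1.52 on the log2 scale, and Gp6 (-0.37), Itga2b (0.40) and Ppbp (0.83) did not pass; Gp1bb had at most 3.39 tags.

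Trem1, a receptor that amplifies inflammation in neutrophils and monocytes, was at the limit of detection. Its start-site region at chr17:48232277-48233077 had 0 tags in 3 H3K27ac libraries and 2.77 in GrnKO replicate 2, and the region 1900 bp before the start reached at most 1.57. The inputs at the start site had 0 tags in 3 libraries and 71.4 in GrnKO input 2, scaled to library size. Trem1 did not pass the filter on low values, and without that filter its difference of 0.46 (SE 0.96) did not pass (limma adjusted p = 0.844). The monocyte list was not at that limit: it summed to 589 to 597 tags in WT and 366 to 457 in GrnKO, with Ccr2 lower by 0.53 on the log2 scale, Plac8 not passing (-0.54) and Ly6c2 at no more than 3.67 tags.

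**Figure D2:**
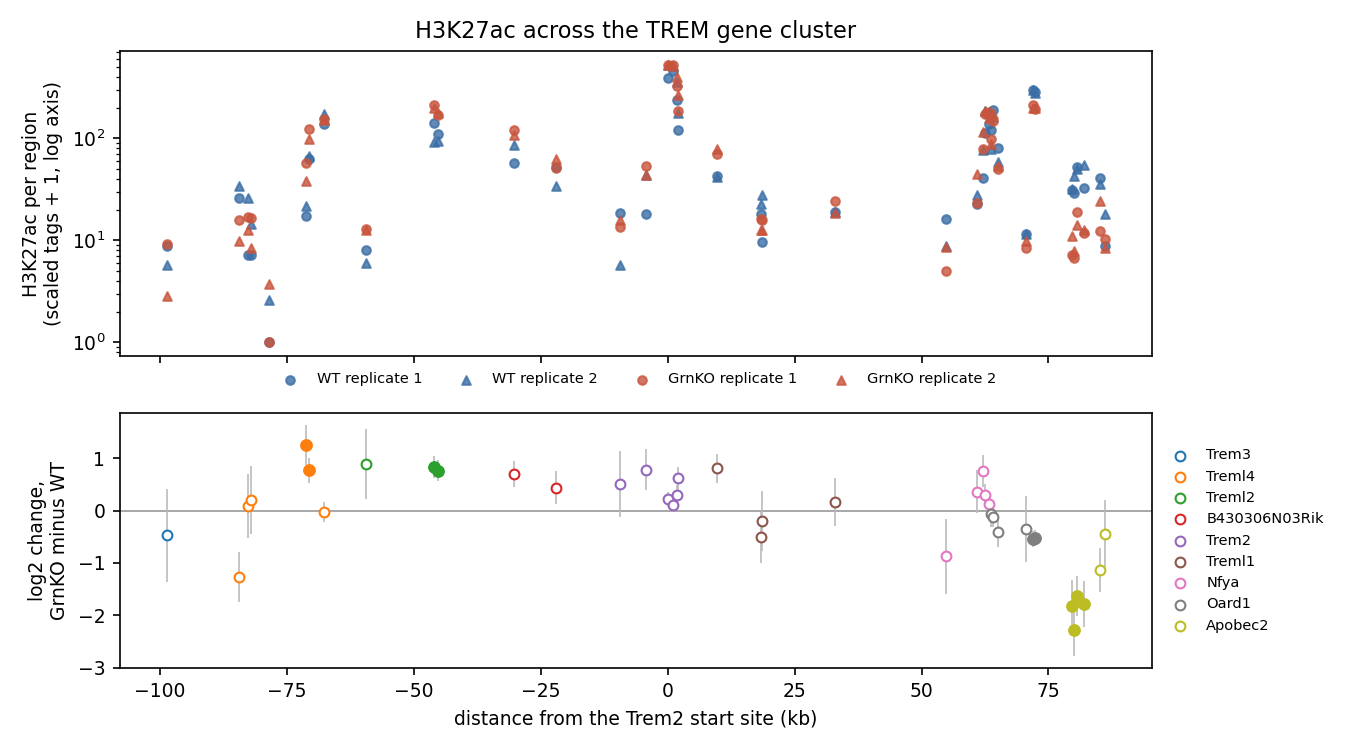
H3K27ac across the TREM gene cluster, by distance from the Trem2 start site in kb; the upper panel gives scaled tags plus 1 in each library on a log axis, and the lower panel the log2 change of each tested region with 1 SE on either side, filled where it passed the test. Filled points are higher at Treml4 and Treml2 and lower at Oard1 and Apobec2, and the Trem2 regions stay open.

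The TREM genes lie side by side on chromosome 17, and the changes there did not extend over the whole neighbourhood. Within 100000 bp of the Trem2 regions there were 20 regions of 5 other genes, all tested. Of these, 0 were higher and 6 were lower, against 6.80% and 2.92% of all tested regions, with a median change of -0.43. The lower ones were 2 regions assigned to Oard1, 72.0 and 72.4 kb past the Trem2 start, and 4 in the first intron of Apobec2, 79.6 to 81.9 kb past it. The Oard1 regions overlap each other, and all but the farthest Apobec2 region form a chain of overlaps, so these regions are not independent. The stronger Oard1 region had 299.6 and 299.9 tags in WT and 210 and 199 in GrnKO, a change of -0.55 (limma adjusted p = 0.0280). The Apobec2 region with the most tags had 51.2 and 49.0 in WT and 18.1 and 13.2 in GrnKO, a change of -1.64 (limma adjusted p = 0.0099). Of these 6 regions, 6 passed without WT replicate 1, 5 without WT replicate 2 and 0 without either GrnKO library. The gene B430306N03Rik, between Treml2 and Trem2, had 55.9 and 84.9 tags at its start site in WT and 119 and 106 in GrnKO. Its change of 0.70 did not pass (limma adjusted p = 0.0872) and was smaller without WT replicate 1, the lower WT library.

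Tyrobp, which encodes DAP12, had the highest H3K27ac per region of the 9 genes, 277 tags in WT at the 99.5th percentile, and its sum was not shown to differ. The gene lies at chr7:30413782-30417582. The 7 regions summed to 1844 and 2037 tags in WT and 2084 and 2157 in GrnKO. Both GrnKO libraries were above both WT libraries, though by little. The difference was 0.13 (SE 0.09, 95% interval -0.07 to 0.33, limma adjusted p = 0.407), 0.06 without WT replicate 1 and 0.20 without WT replicate 2.

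Its parts behaved differently in size. At the start site, chr7:30413363-30414163, the WT libraries had 504 and 643 tags and the GrnKO libraries 520 and 584. The region 973 bp before the start, chr7:30412415-30413215, had 406 and 449 in WT and 423 and 397 in GrnKO. Both overlapped between the genotypes, with changes of -0.05 and -0.06 after TMM that turn to 0.18 and 0.17 on the deposited scaling. A weak region 2575 bp before the start, chr7:30410813-30411613, had 14.5 and 34.6 tags in WT and 61.1 and 60.0 in GrnKO. It rose by 1.39 (SE 0.38, limma adjusted p = 0.0274), 2.47-fold in mean tags, and the GrnKO libraries were nearly equal and above both WT libraries. It was also the only one of 77 member regions, against 2.48% of all regions, whose change differed from that of the other regions of its gene (1.25 higher, limma diffSplice adjusted p = 0.0396). Without WT replicate 1 neither call held (change 0.79, limma adjusted p = 0.0735; diffSplice adjusted p = 0.146), and the first was also lost with edgeR (0.0570), DESeq2 (0.0518) and no filter (0.0541).

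A block of 4 overlapping intergenic regions, 18710 to 20469 bp before Tyrobp, averaged 63.4 to 436 tags per region in WT, below the 573 of the start-site region. Its tallest region, chr7:30393425-30394225, had 446 and 426 tags in WT and 527 and 571 in GrnKO, a change of 0.33 (limma adjusted p = 0.0939). The region beside it, 20469 bp before the start, had 183 and 207 tags in WT and 279 and 272 in GrnKO, a change of 0.50 (limma adjusted p = 0.0531). At both the GrnKO libraries were clear of WT, and neither passed with all libraries; the tallest passed without WT replicate 1 (limma adjusted p = 0.0290) and the one beside it without WT replicate 2 (limma adjusted p = 0.0077). The next region of the block went the other way, with 235 and 207 tags in WT and 194 and 200 in GrnKO. Over all Tyrobp regions beyond 1000 bp from the start, the sum changed by 0.35 more than the sum within 1000 bp (SE 0.11, limma adjusted p = 0.119).

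Hcst, which encodes the adaptor DAP10, lies just past the end of Tyrobp on the opposite strand, at chr7:30417712-30419854, and rose in GrnKO. Its 4 regions summed to 712 and 817 tags in WT and 960 and 1033 in GrnKO, with both GrnKO libraries above both WT libraries. The mean was 1.30-fold higher (log2 difference 0.38, SE 0.12, 95% interval 0.13 to 0.64, limma adjusted p = 0.0435). Without WT replicate 1 the difference was 0.29 and did not pass (limma adjusted p = 0.0816), and on the deposited scaling it was 0.61 (limma adjusted p = 0.0710). Per region Hcst had 191 tags in WT, at percentile 98.1.

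The rise of Hcst was spread over its regions, none of which passed alone with all libraries. The start-site and upstream regions passed without WT replicate 2 (limma adjusted p = 0.0218 and 0.0175), and the upstream change was 0.13 without WT replicate 1. The start-site region, chr7:30419466-30420266, had 273 and 308 tags in WT and 357 and 389 in GrnKO, a change of 0.36 (limma adjusted p = 0.119). The intron 1 region at chr7:30419209-30420009 had 226 and 232 in WT and 287 and 310 in GrnKO, a change of 0.38 (limma adjusted p = 0.123). The region upstream, chr7:30419992-30420792, had 161 and 218 tags in WT and 225 and 253 in GrnKO, a change of 0.35. A weaker region, chr7:30417240-30418040, lies at the end of Tyrobp and is assigned to Hcst; it had 51.6 and 59.2 tags in WT and 90.8 and 81.2 in GrnKO, a change of 0.63 (limma adjusted p = 0.135). At each of the 4 regions both GrnKO libraries exceeded both WT libraries, as at 27% of all tested regions. The 4 regions form only 2 blocks that do not overlap, so they are not independent. Around Tyrobp, 33 regions of 8 genes other than Tyrobp and Hcst were listed within 100000 bp, of which 14 were tested. Of these 0 passed, against 6.80% higher and 2.92% lower of all tested regions, with a median change of 0.16. Next to Hcst, the 5 start-site regions of Nfkbid, which encodes an atypical inhibitor of NF-kappaB, changed by -0.09 to 0.82 without passing. The region with 0.82 had 29.3 and 60.8 tags in WT and 75.2 and 75.7 in GrnKO, so its change was smaller without WT replicate 1.

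**Figure D3:**
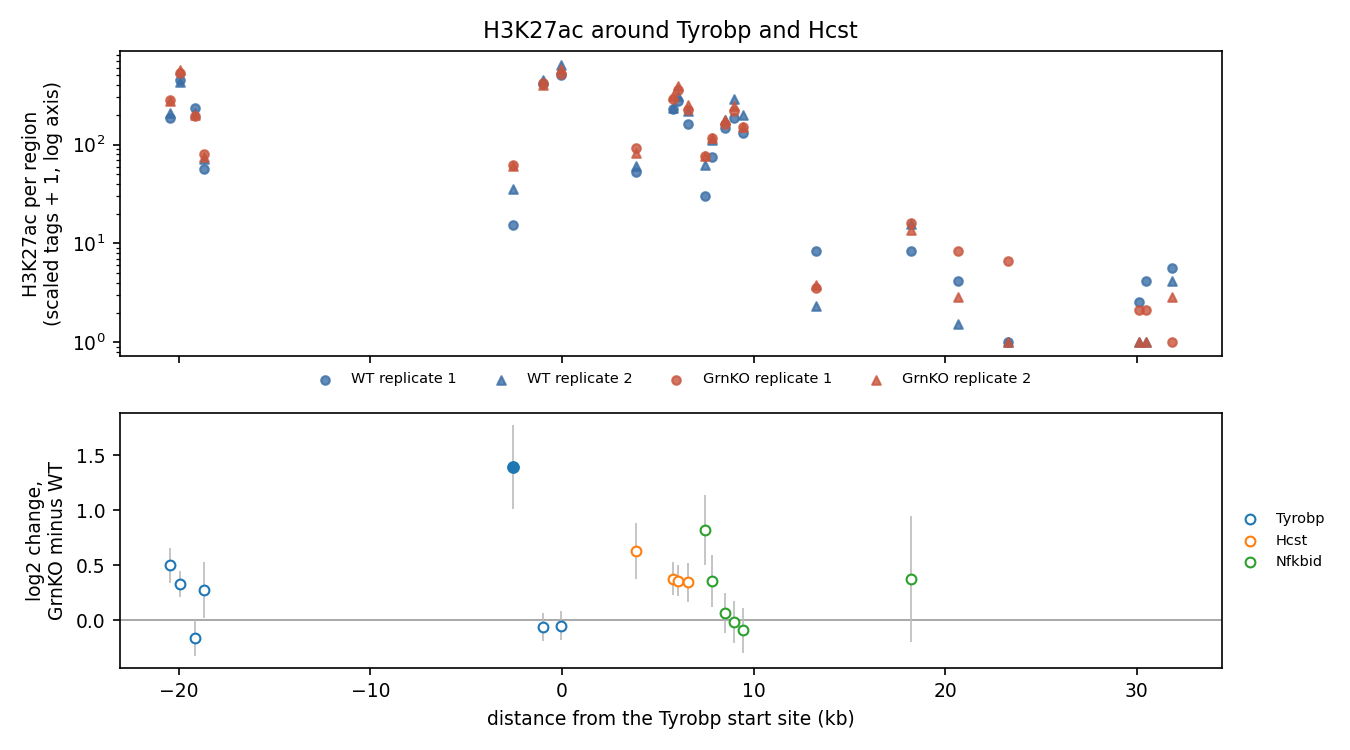
H3K27ac around Tyrobp and Hcst, by distance from the Tyrobp start site in kb, drawn in the same way. The Tyrobp promoter regions near 0 kb lie at -0.05 and -0.06, the filled point at -2.58 kb is the weak upstream region that rose by 1.39, and the 4 Hcst regions lie between 0.35 and 0.63.

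Syk, the tyrosine kinase recruited by DAP12, changed more in its sum over distal regions than in its sum over promoter regions. The gene lies at chr13:52582610-52648792. Its 19 regions summed to 908 and 1012 tags in WT and 1226 and 1086 in GrnKO, with both GrnKO libraries on top. That difference of 0.27 (SE 0.11) did not pass (limma adjusted p = 0.144), but passed when overlapping regions were counted once (0.38, limma adjusted p = 0.0426). It also passed without WT replicate 2 (0.34, limma adjusted p = 0.0180) and was 0.19 without WT replicate 1 (limma adjusted p = 0.270), so the sum depended on the WT library kept. At 9 of the 17 tested regions (52.9%, against 27% of all regions) both GrnKO libraries were above both WT libraries, and these 9 lay in introns more than 1000 bp from a start site. At 3 regions (17.6%, against 25.6%) both were below: a pair at the downstream start and 1 distal intronic region, chr13:52584780-52585580, 1743 bp past the upstream start. That region, with the highest WT mean of the distal Syk regions, had 81.0 and 78.3 tags in WT and 72.4 and 67.1 in GrnKO, a change of -0.19 that did not pass (limma adjusted p = 0.700). Summed over the regions beyond 1000 bp, WT had 325 and 350 tags and GrnKO 583 and 539. Within 1000 bp, WT had 584 and 663 and GrnKO 643 and 547. The distal sums were far apart between the genotypes while the promoter sums overlapped. The distal change exceeded the promoter change by 0.80 (SE 0.14, 95% interval 0.50 to 1.10, limma adjusted p = 0.0143); such a distal excess was found at 1.45% of the 7324 genes with both kinds of region, and a promoter excess at 0.546%. It was 0.84 without WT replicate 1 (limma adjusted p = 0.00088), but did not pass without GrnKO replicate 1 (0.86, limma adjusted p = 0.223) or without GrnKO replicate 2 (0.74, limma adjusted p = 0.299). Of the other 6 genes tested this way (Trem2, Tyrobp, Treml2, Treml4, Hcst and Plcg2), 0 passed.

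Syk has an upstream and a downstream start site, each with its own acetylated promoter. At the upstream start the 3 overlapping regions, chr13:52582267-52583067, chr13:52582694-52583494 and chr13:52583088-52583888, changed by 0.68, 0.17 and 0.16. The strongest of them had 140 and 157 tags in WT and 191 and 144 in GrnKO, and the genotypes overlapped at all 3. At the downstream start, chr13:52596476-52597276 had 136 and 179 tags in WT and 126 and 133 in GrnKO. The region just past it, chr13:52597127-52597927, had 193 and 186 in WT and 133 and 150 in GrnKO. Both GrnKO libraries were below both WT libraries at this pair, which overlap. Neither change passed (-0.27, limma adjusted p = 0.443, and -0.42, limma adjusted p = 0.155). The change of -0.27 was smaller in size without WT replicate 2 and larger without WT replicate 1.

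The regions that rose began 6175 bp past the downstream start. A pair of overlapping regions in intron 1 of 13 rose: chr13:52602657-52603457, with 13.7 and 15.4 tags in WT and 41.9 and 35.8 in GrnKO, changed by 1.35 (SE 0.40, limma adjusted p = 0.0408). Its neighbour chr13:52603072-52603872, with 7.83 and 16.0 in WT and 36.5 and 39.7 in GrnKO, changed by 1.67 (SE 0.45, limma adjusted p = 0.0252). Both were weak in WT and clearly above it in each GrnKO library, and both calls were lost without the filter on low values (limma adjusted p = 0.0758 and 0.0568). In intron 3, chr13:52619292-52620092 had 14.9 and 31.7 tags in WT and 76.7 and 51.9 in GrnKO and changed by 1.49 (SE 0.38, limma adjusted p = 0.0179), and by 0.97 without WT replicate 1 (limma adjusted p = 0.0269). In intron 9, chr13:52635953-52636753 had 65.7 and 85.1 in WT and 133 and 143 in GrnKO and changed by 0.88 (SE 0.22, limma adjusted p = 0.0171). These were the strongest distal regions of Syk to pass, and the genotypes did not overlap at either. Another, 18324 bp past the downstream start, had 71.2 and 54.7 tags in WT and 122 and 96.0 in GrnKO and fell just short (0.78, limma adjusted p = 0.0531), passing without WT replicate 1 (0.97, limma adjusted p = 0.0042). The 2 intergenic regions past the gene had at most 13.3 tags and were not tested.

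**Figure D4:**
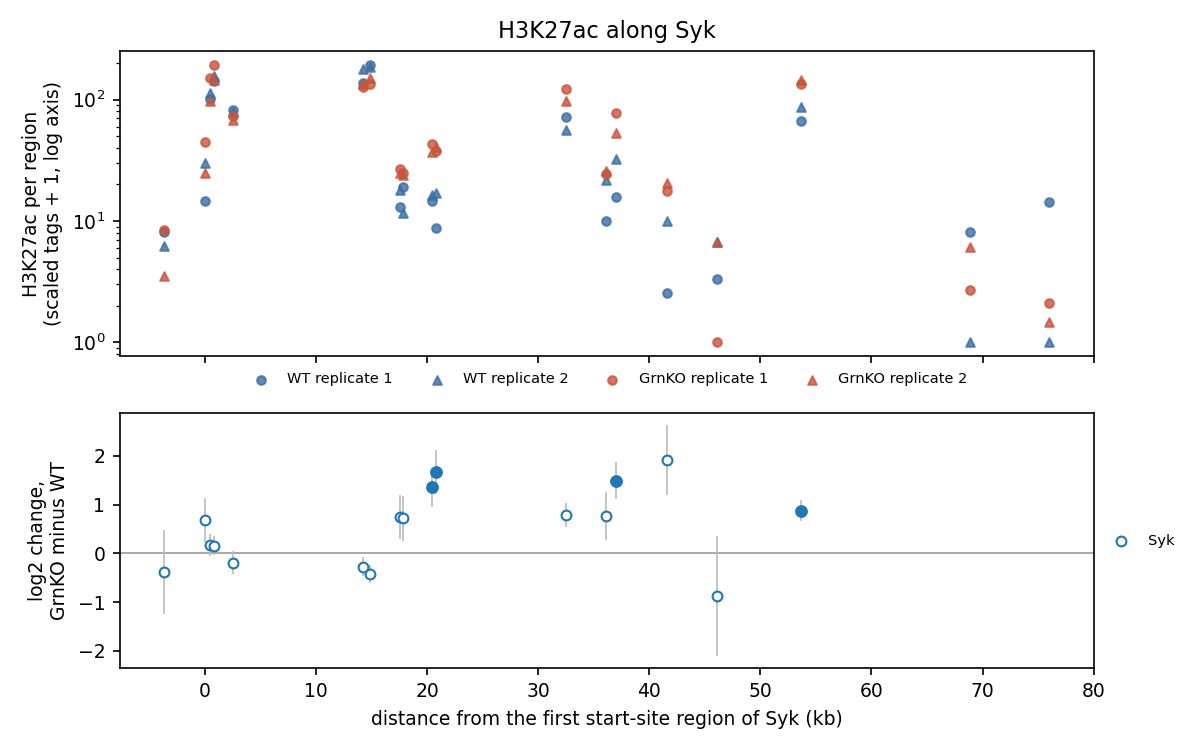
H3K27ac along Syk, by distance in kb from its first start-site region, with scaled tags plus 1 in each library on a log axis above and the log2 change with 1 SE on either side below, filled where it passed the test. The upstream promoter near 0 kb lies at 0.16 to 0.68, the downstream promoter at -0.27 and -0.42, and the 4 filled regions in introns at 0.88 to 1.67.

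Plcg2 encodes phospholipase C gamma 2, the enzyme that turns the SYK signal into calcium release, and no difference was found in its summed H3K27ac. The gene lies at chr8:117498275-117635142. The 37 regions summed to 1914 and 1955 tags in WT and 1821 and 1928 in GrnKO, which overlapped. The difference was -0.05 (SE 0.09, 95% interval -0.24 to 0.15, limma adjusted p = 0.803), an interval that leaves out a change as large as that of Treml2. At the start site, chr8:117497881-117498681 had 258 and 195 tags in WT and 172 and 196 in GrnKO. The overlapping region chr8:117498191-117498991 had 273 and 211 in WT and 192 and 213 in GrnKO, and here too WT replicate 1 was the high library and the other 3 were alike. The changes were -0.29 and -0.24. The first was -0.49 without WT replicate 2, and both were smaller in size without WT replicate 1. A weak region 978 bp past the start, chr8:117498853-117499653, had 18.8 to 26.2 tags.

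Of 26 intronic regions of Plcg2 tested, 6 had both GrnKO libraries above WT (23.1%) and 5 had both below (19.2%), shares near the 27% and 25.6% of all regions; 0 passed, nor did any of the 30 tested Plcg2 regions with all libraries. The strongest distal region, 44831 bp into the gene, had 207 and 243 tags in WT and 155 and 182 in GrnKO, a change of -0.41 (limma adjusted p = 0.151). This change was -0.53 without WT replicate 1 and smaller in size without WT replicate 2. A region 34285 bp into the gene went the other way, with 31.3 and 48.2 tags in WT and 53.7 and 93.9 in GrnKO, a change of 0.85 (limma adjusted p = 0.111). That change was 1.16 without WT replicate 2, and smaller than 0.85 without WT replicate 1 or without GrnKO replicate 2. The distal sum of Plcg2 changed by 0.28 more than its promoter sum, with an interval from -0.09 to 0.64.

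**Figure D5:**
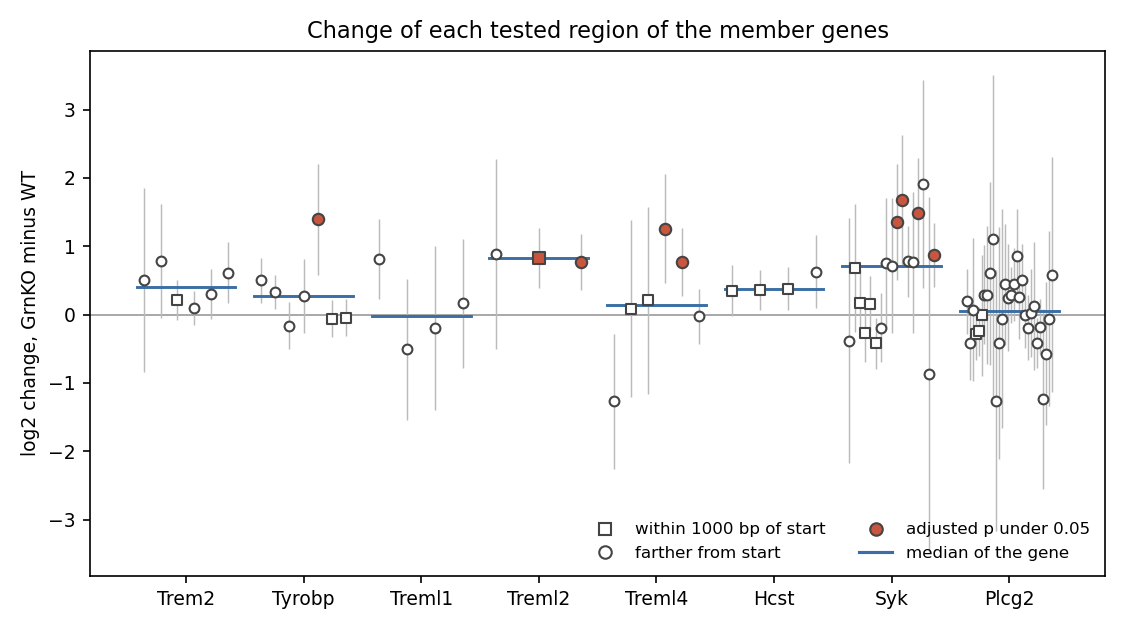
Log2 change (GrnKO minus WT) of each of the 77 tested regions, ordered within each gene by distance from the start site, with 95% intervals; squares lie within 1000 bp of a start site, filled symbols passed the test and blue lines are medians. The 9 filled regions belong to Tyrobp, Treml2, Treml4 and Syk, and the promoter squares, all open but that of Treml2, lie at 0.22 for Trem2, -0.06 and -0.05 for Tyrobp and -0.29 to -0.01 for Plcg2.

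In WT nuclei, the order of H3K27ac per region was Tyrobp (277 tags), Trem2 (238), Hcst (191), Treml2 (74.4), Plcg2 (52.3), Syk (50.5), Treml4 (41.9), Treml1 (24.1) and Trem1 (0.39). Between neighbours in this order, the WT libraries overlapped for Tyrobp (263 and 291) with Trem2 (206 and 270), and for Plcg2 (51.7 and 52.8) with Syk (47.8 and 53.3), and did not overlap for the other pairs. The genes whose pattern over the 4 H3K27ac libraries was most like that of Trem2 were Rpl39, Efna5 and Tchp, with root mean square log2 differences of 0.011, 0.014 and 0.017, and 417 of 15380 genes lay within 0.1. For Tyrobp they were Dpysl2, Fkbp15 and Gpr160 (0.0066, 0.0068 and 0.0087), with 1232 genes within 0.1.

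Among the genes of the pathway lists, changes went both ways. The counts below stand beside the 8.60% of all genes that were higher and the 5.88% that were lower. Of the 51 pathway and marker list genes that passed, 48 passed without WT replicate 1, 51 without WT replicate 2, 27 without GrnKO replicate 1 and 29 without GrnKO replicate 2. Of 8 tested ligands and partners of TREM receptors 3 were higher and 0 lower. Lgals3, encoding galectin-3, a ligand of TREM2, had 1036 and 1199 tags in WT and 1993 and 2124 in GrnKO (0.88, limma adjusted p = 9.7e-05). Apoe, a lipid carrier that binds TREM2, had 610 and 400 in WT and 944 and 819 in GrnKO (0.83, limma adjusted p = 0.0054). The Apoe change was 1.13 without WT replicate 1 and 0.53 without WT replicate 2. The weak Plxna1, a plexin that can associate with TREM2, changed by 1.03. At these 3 genes the genotypes did not overlap, and the median of the list was -0.05, the same as over all genes.

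Of 10 other TREM-cluster or adaptor-coupled receptors tested, Sirpb1a rose by 1.26 and Siglech, a microglial lectin that signals through DAP12, fell by 0.37. The related adaptor gene Fcer1g had 1077 and 1071 tags in WT and 1208 and 1156 in GrnKO, a difference of 0.14 that did not pass (limma adjusted p = 0.437). Of 8 tested proteases that shed or cleave TREM2, only Psen2, a catalytic subunit of gamma-secretase, passed, higher by 0.90.

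Among 19 tested kinases and adaptors next to Syk, 4 rose and 1 fell. Those that rose were Sh3bp2 by 0.48, Vav3 by 1.09, Grap by 0.73 and Grb2 by 0.37, all adaptors or exchange factors, and Src, a kinase that phosphorylates tyrosine motifs, fell by 0.64. The list median was 0.04. Of 28 tested genes of the phosphoinositide 3-kinase, phospholipase and calcium arm, 2 rose (Pik3ca by 2.27 and Ctnnb1 by 0.84) and 2 fell, among them Plcg1 by 0.53, with a median of -0.10; at 7.14% each, these shares are close to those of all genes. Plcg1, the paralog of Plcg2, had 1662 and 1751 tags in WT and 1041 and 1345 in GrnKO. Its WT libraries were both above its GrnKO libraries, unlike those of Plcg2. The Plcg1 change was -0.34 without GrnKO replicate 1 and -0.71 without GrnKO replicate 2.

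Of 18 tested inhibitors of tyrosine-motif signalling, 2 rose (11.1%) and 3 fell (16.7%), with a median of -0.14. Dgkz, which removes the lipid messenger made by phospholipase C, rose by 0.57, and the inhibitory receptor gene Lilrb4a rose by 0.36. Among those that fell were the phosphatase gene Inpp5d, which encodes SHIP1, by 0.21 and the inhibitory receptor gene Pirb by 1.14. Inpp5d had 14079 and 14130 tags in WT and 11799 and 12529 in GrnKO, so the genotypes were apart while the change was small.

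Disease-associated microglia genes were taken in 2 lists, by whether they have been described as needing Trem2. Of 15 that do, 9 rose and 2 fell, with a median of 0.42. Gpnmb, a lysosomal and surface glycoprotein, had 17.6 and 15.2 tags in WT and 440 and 389 in GrnKO (4.58, limma adjusted p = 3.1e-07), and Igf1, Cd63 and Clec7a rose by 1.64, 1.13 and 0.87. Lpl and Ccl6, of the same list, fell by 0.74 and 0.39, Ccl6 without passing when WT replicate 1 was left out (limma adjusted p = 0.0916). Of 9 genes described as not needing Trem2, 7 rose and 0 fell, with a median of 0.44; Cstb, Ctsd, Ctsb and Apoe rose by 1.19, 0.38, 0.64 and 0.83. The medians of both lists stood above the -0.05 of all genes, and a difference between the lists was not tested.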

How the data were processed

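H3K27ac ChIP-seq and input libraries of sorted PU.1+ nuclei were deposited as 1 table of signal in 129304 regions of 800 bp with gene annotation. Per the file headers, the authors scaled each library's tags to 10000000; dividing by the header totals gave whole read ends (2 to a tag, tolerance at most 0.0400) for 100% of the values. The submitters' processing notes name Bowtie2, HOMER, DESeq2 and mm10, without roles; the versions are not given in the sources used here. The regions are named as ATAC peaks by the authors; the libraries used to call them were not analysed here.

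From this signal, TMM factors were computed (0.825 and 1.04 for WT, 1.08 and 1.08 for GrnKO) after a filter on low tags (edgeR filterByExpr, minimum 10 tags), leaving 80728 regions and 15380 genes. Tests used limma 3.58.1 (lmFit, eBayes with trend) on log2(signal + 1), for regions, for sums over all regions of a gene, and with diffSplice for a region against the other regions of its gene (77519 regions). Inputs did not enter the fits. The test of distal against promoter sums was added after seeing the data. Alternatives were the deposited scaling, RLE factors, pseudocount 5, no filter, a replicate block, each library left out, edgeR 4.0.16 and DESeq2 1.42.0 on recovered reads, and other ways of summing a gene.

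The genes named were all 9 genes with every region that passed or lay within 1000 bp of a start site, the regions that passed among neighbours within 100000 bp, and, in each pathway list, the up to 4 higher and 4 lower genes that passed with the smallest p. Some genes this rule names are not reported here. Other regions described in the text were picked after their values were seen. The genes and lists were chosen with earlier results of these data known. Microglia and border macrophage lists are given above; of the other marker lists, the counts of higher and lower genes among those tested were 0 and 1 of 2 for monocytes, 1 and 0 of 5 for neutrophils, 1 and 0 of 2 for B cells, 0 and 0 of 2 for T and NK cells, 0 and 1 of 4 for platelets, 1 and 1 of 3 for oligodendrocytes, 0 and 1 of 4 for neurons, 0 and 0 of 3 for astrocytes and 1 and 0 of 3 for endothelium.

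The tests were tried on simulated data with 200 changed regions. Limma per region recovered 2.11% of log2 changes of 1 and 50.0% of changes of 2 among 77590 regions, with 1.96% of calls false. On data with 200 changed genes, limma per gene (14034 genes) recovered 50.0% and 90.6%, with 9.33% of calls false. With 200 changed regions, a region against its gene (74407 regions) recovered 1.10% and 31.6%, with 13.9% false. That share counts as false the unchanged regions of a gene with a changed one, so it is an upper figure. Calls of these last tests, as for Hcst and the Tyrobp region, may therefore carry more than the nominal error. The distal test (6475 genes), with only the distal regions of 200 genes changed, recovered 4.35% and 71.7%, with 0% false. Replicates are separate pools of 2 mice. Counting limits cover counting error only. Promoter sequences and gene positions are RefSeq's (GRCm38.p6); the table's start sites lay within 10 bp of the RefSeq gene end for 5 of the 9 genes.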

Additional observations from a re-analysis of the deposited data

How the results depend on the processing

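Of 495 comparisons of a result with an alternative, 384 kept the direction and the call (or the size), 46 lost the call, 7 gained one, 38 moved and 20 reversed. Treml2 at both regions and Syk at its intron 3 and intron 9 regions passed under every alternative with all 4 libraries. Leaving a library out leaves 1 genotype with a lone library, assumed to vary like the other genotype. Leave-one-out counts ranged from 1335 to 14319 regions differing (7843 with all libraries), from 779 to 3716 genes (2226), and from 160 to 5671 regions differing from the rest of their gene (1922). For distal against promoter sums they ranged from 7 to 670 genes (146). Among the 9 genes they ranged from 0 to 18 higher regions (9), from 0 to 2 lower regions (0), from 0 to 4 higher genes (2) and from 0 to 4 regions differing from their gene (1). With no filter, 876 regions differed from the rest of their gene, 4 member regions were higher (3.19% of all regions were) and 0 differed from their gene (0.703% of all did). Using only regions within 1000 bp of the start site, 581 genes differed and 1 member gene was higher (3.58% of all genes were); the deposited scaling also gave 1 higher member gene (10.6% of all genes), and 0 member regions differing from their gene (1.79% of all).

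The replicate numbers mark different mice, and same-numbered libraries hardly deviated together (correlation 0.034). With the replicate number as a block, 15 member regions were higher (19.5%, against 9.17% of all regions), 0 differed from the rest of their gene (2.14% of all regions did), and 445 genes had a distal change unlike the promoter change; the call of Tyrobp's region 2575 bp upstream against its gene was lost (diffSplice adjusted p = 0.0934).

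Reversed values were small changes that did not pass in the limma fit of all 4 libraries after TMM scaling. Some passed under an alternative, as the Syk sum did when overlapping regions were counted once. Within 1000 bp of the start, the Tyrobp sum was -0.051 and the Syk sum -0.069. On the deposited scaling Plcg2 was 0.18, its region 978 bp past the start 0.20, and the Tyrobp regions 973 and 25 bp before the start 0.17 and 0.18. Leaving out each library moved the Trem2 start-site region from -0.0033 (without WT replicate 1) to 0.44, the Tyrobp region 973 bp upstream from -0.13 to 0.015, and the Tyrobp start-site region from -0.22 to 0.13. It moved Treml4 at 563 bp upstream from -0.83 to 1.00 and at 76 bp upstream from -0.28 to 0.70, Syk at its upstream start from -0.14 to 0.48 and from -0.041 to 0.37, and the Plcg2 region at 978 bp from -0.24 to 0.22. The Treml4 region 563 bp upstream was also -0.21 with edgeR and -0.20 with DESeq2. The cause of these shifts was not tested. In the simulation, log2 changes of 1 in single regions were mostly not recovered. That simulation held only 200 changed regions at 1 common spread. In these data changes of 0.77 to 0.88 passed at some of the stronger member regions.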
